A study of Mus musculus with 2 samples.

Results

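The 10 genes described here are *Shh*, *Ptch1*, *Smo*, *Hhip*, *Gli1*, *Gli2*, *Gli3*, *Nkx2-1*, *Nkx2-2* and *Nkx6-2*, the core of the Sonic hedgehog pathway together with homeobox genes of the ventral neural tube. They were chosen by symbol, and all 10 were found once each among the 29311 genes for which the authors deposited a value. RNA-seq was done on 2 samples, 1 of wild-type E14 mouse ES cells and 1 of wild-type forebrain from B6CBAF1/J mouse embryos at E10.5, without replicates and without treatment of either. The ES cells were grown without feeder cells in serum and LIF. For the forebrain, the methods state that RNA came from single embryos, whereas the labels give the same number of cells for either sample. The study asked about background transcription of *Hox* genes in these samples, and the hedgehog pathway was not its subject.

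Hedgehog ligands are secreted proteins that bind Patched receptors. Without ligand, Patched keeps the membrane protein Smoothened inactive, and Gli proteins are processed into repressors. When ligand binds, Smoothened accumulates in the primary cilium and the Gli proteins act as activators. In the embryonic brain, *Shh* is made in the ventral midline and in the basal forebrain, and *Nkx2-1* marks the ventral forebrain, including the hypothalamus and the medial ganglionic eminence. *Ptch1*, *Gli1* and *Hhip* are themselves activated by the pathway, which makes their transcripts its usual readout.

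Levels are given as the deposited RPKM, a value per kb of exon that carries a scaling per sample by the authors. Multiplied by exon length, most low values were whole multiples of a step, from which the number of reads behind each gene was inferred. The reads of *Ptch1*, *Smo*, *Gli1*, *Gli2* and *Gli3* in both samples, of *Nkx2-2* in the forebrain and of *Nkx6-2* in ES cells did not come out whole within 0.05 and are approximate. The inferred reads on genes were 42778595 in ES cells and 59787625 in the forebrain. Ranges in parentheses are exact 95% intervals for the counting of reads, and cover no variation between embryos or cultures. Pluripotency and forebrain markers matched the labels. All 7 pluripotency markers were at least 2-fold higher in ES cells, and all 8 forebrain markers were at least 2-fold higher in the forebrain. Markers of other tissues were also present in the forebrain sample. The 5 head mesenchyme markers summed to an RPKM of 3606 (40.9 in ES cells), the 5 endothelial markers to 1895 (603 in ES cells) and the 5 erythroid markers to 675754 (330 in ES cells), with none of these 15 markers at 0 in either sample. Of these markers, *Pecam1* was 1.74-fold higher in ES cells, and the others were at least 2-fold higher in the forebrain. The 4 listed endoderm markers summed to 52.4 (8.15 in ES cells), and the 6 midbrain and hindbrain markers to 56.1 (517 in ES cells). In either set, 3 were at least 2-fold higher in the forebrain (25.8% of all listed genes) and 1 in ES cells (23.3%). The part of these tissues in the differences described here was not tested, and in bulk samples fewer cells of a type cannot be told apart from less RNA per cell.

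Of the 10 genes, 9 were at least 2-fold higher in the forebrain and 1, *Nkx6-2*, was at least 2-fold higher in ES cells. Among all listed genes, 25.8% were at least 2-fold higher in the forebrain and 23.3% in ES cells. These counts were taken after adding 1 to the RPKM, which makes the differences of low genes smaller, whereas the fold of a single gene is the plain ratio of its RPKM values. In numbers, 7558 genes were higher in the forebrain and 6829 in ES cells, a split that became 6388 and 8663 when each sample was divided by its median. The median difference of the 10 genes was 3.47 on the log2(RPKM + 1) scale, compared with 0.01 over all listed genes. At least 8-fold higher in the forebrain were 6 of the 10 genes and 8.64% of all listed genes. Of the 10 genes, 2 were listed at 0 in ES cells (9.09% of all listed genes) and 0 in the forebrain (7.85%). By their reads in ES cells, the genes fell into 2 groups. *Shh*, *Nkx2-1*, *Nkx2-2* and *Hhip* had 0 or 1 inferred reads in ES cells and 123 to 542 in the forebrain, a pattern shared by 1.00% of all listed genes (at most 1 read in ES cells and at least 100 in the forebrain). These limits on reads were not set in advance. The other 6 (*Ptch1*, *Smo*, *Gli1*, *Gli2*, *Gli3* and *Nkx6-2*) had 141 to 767 reads in ES cells and 241 to 9066 in the forebrain. The share of all listed genes with as many reads in both samples was not counted. With 1 sample per group, none of these differences has a replicate check.

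**Figure D1:**
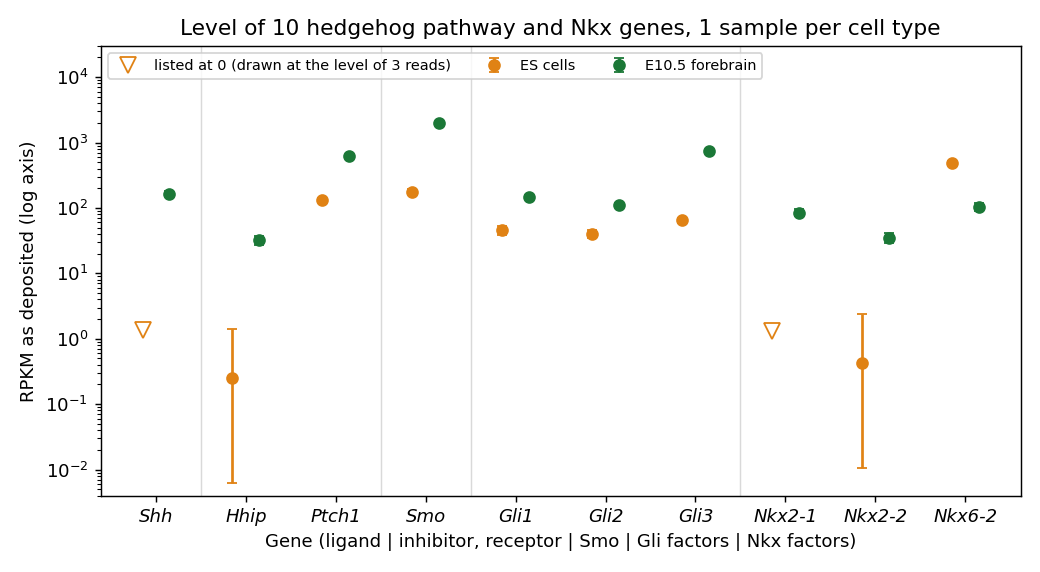
RPKM as deposited (log axis) of the 10 genes in ES cells (orange) and E10.5 forebrain (green), with exact Poisson 95% intervals for the counting of reads as bars. Open triangles mark *Shh* and *Nkx2-1* in ES cells, which are listed at 0 and drawn at the level that 3 reads would give. All genes except *Nkx6-2* lie higher in E10.5 forebrain.

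*Shh*, the ligand (ENSMUSG00000002633, chromosome 5, 28783355 to 28793641, NCBIM37, minus strand), was listed at 0 in ES cells. No read was found there, which allows an RPKM of up to 1.36, the value of 3 reads on this gene. In the forebrain its RPKM was 165 from 542 reads (151 to 179), at percentile 61.2 of the listed genes. The forebrain level was 121-fold that of 3 reads in ES cells. The exact interval of the ratio started at 98.2. The forebrain value of *Shh* exceeded that of *Gli1* by only 1.12-fold (1.00 to 1.26). The axial mesendoderm (notochord and prechordal plate), which also makes *Shh*, was checked with 5 marker genes. In the forebrain *Noto* had 3 reads and *T* 8, while *Foxa2* had 87, *Nog* 144 and *Chrd* 196. In ES cells *Noto* had 2 reads, *Foxa2* 3, *Nog* 5, *Chrd* 66 and *T* 2106. At least 2-fold higher in the forebrain were *Foxa2* and *Nog*, and at least 2-fold higher in ES cells was *T*. None of the 5 was at 0, and their RPKM summed to 1132 in ES cells and 123 in the forebrain. *Foxa2*, *Nog* and *Chrd* are also expressed outside this tissue, and its part in the level of *Shh* was not tested.

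A pair of lincRNAs is annotated on the strand opposite to *Shh*. *Gm17493* shares 361 bp of exon with *Shh* and had an RPKM of 0 in ES cells and 105 in the forebrain, from 145 reads (88.4 to 123). *9530036O11Rik* shares 291 bp with it and had 0 and 13.9, from 62 reads. Both were thus listed at 0 in the same sample as *Shh*. The libraries were strand-specific, but whether the counting used the strand is not stated, and reads of the shared exons cannot be assigned from these tables.

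The other ligands of the family were low in both samples. *Ihh*, which acts in bone and gut, had an RPKM of 3.47 in ES cells from 7 reads and 1.33 in the forebrain from 4 reads. *Dhh*, the ligand of testis and peripheral nerve, had 7.23 from 14 reads and 12.8 from 37 reads. The intervals of both ratios of the forebrain over ES cells included 1 (0.082 to 1.51 for *Ihh* and 0.936 to 3.55 for *Dhh*). In the forebrain, *Shh* was thus the ligand with by far the highest level per kb of exon. In ES cells, each of the 3 ligands had at most 14 reads.

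Genes for the processing and release of ligands were not uniformly higher. Of the 6 listed genes of the list of ligands and release, which includes *Ihh* and *Dhh*, 3 were at least 2-fold higher in the forebrain (background 25.8%), 0 were at least 2-fold higher in ES cells, and the median difference was 1.09. *Hhat*, the acyltransferase that attaches palmitate to the ligand, had an RPKM of 5.70 in ES cells and 67.3 in the forebrain, an 11.8-fold difference (8.58 to 16.4). The Scube proteins help to release the ligand from the membrane. *Scube1* had 3 reads in ES cells and 6735 in the forebrain, with an RPKM of 0.44 and 661, a ratio of 1502 (515 to 7305). *Scube3* had 172 and 461, and *Scube2* had 43.5 and 42.4, a ratio of 0.973 whose interval included 1 (0.788 to 1.21). *Disp1*, the transporter that exports the ligand, was not analysed here.

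*Ptch1*, the main receptor (ENSMUSG00000021466, chromosome 13, 63610261 to 63674474, minus strand), had an RPKM of 133 in ES cells from 717 reads (124 to 143). In the forebrain it had 626 from 5024 reads (609 to 643), 4.70-fold higher (4.35 to 5.09). It was well above the median of all listed genes in both samples, at percentiles 61.1 and 81.4.

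*Hhip*, a membrane protein that binds and sequesters hedgehog ligands (ENSMUSG00000064325, chromosome 8, 82490014 to 82581905, minus strand), had an RPKM of 0.25 in ES cells from 1 read (0.0063 to 1.39). In the forebrain it had 31.8 from 190 reads (27.4 to 36.6), a ratio of 127 (22.6 to 5061). *Hhip* had the lowest level of the 10 genes in the forebrain, at percentile 43.2 of the listed genes. *Ptch1* and *Hhip* both bind the ligand, and the level of *Ptch1* exceeded that of *Hhip* 19.7-fold in the forebrain (17.0 to 22.9).

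The co-receptors showed some of the largest differences of the pathway. Of 6 genes of this list, 5 were at least 2-fold higher in the forebrain (background 25.8%), 0 in ES cells, and the median difference was 3.17. *Gas1*, a membrane-anchored protein that promotes *Shh* signalling, had an RPKM of 14.8 in ES cells from 36 reads and 1476 in the forebrain from 5334 reads, a 99.4-fold difference (71.7 to 142). *Boc* had 9.59 and 567, which is 59.2-fold (42.5 to 85.1), and *Cdon* had 86.9 and 1001, which is 11.5-fold (10.6 to 12.6). *Boc* and *Cdon* are related proteins of the immunoglobulin superfamily that bind the ligand together with *Ptch1*. *Gpc3*, a glypican that competes for the ligand, had the highest level of the list in both samples, with 494 and 3524. *Lrp2*, an endocytic receptor of the neuroepithelium, had 60.1 and 163. *Gas1* and *Gpc3* are also known in mesenchyme, whose markers were high in the same library.

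*Smo*, the signal transducer (ENSMUSG00000001761, chromosome 6, 29685694 to 29711365, plus strand), had an RPKM of 176 in ES cells from 546 reads (162 to 192). In the forebrain it had 1965 from 9066 reads (1925 to 2006), 11.1-fold higher (10.2 to 12.2). It was the highest of the 10 genes in the forebrain, at percentile 94.0 of all listed genes. The pseudogene *Gm13717* lies within *Smo* on the same strand, shares no exon with it and had an RPKM of 82.0 in ES cells and 71.5 in the forebrain. The downstream gene *Ahcyl2*, 7077 bp away on the same strand, had 131 and 144, so the difference at *Smo* did not extend to these neighbours.

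The ratio of *Smo* to *Ptch1* does not depend on the scaling between samples. It was 1.32 in ES cells (1.18 to 1.48) and 3.14 in the forebrain (3.03 to 3.25), and these intervals did not overlap. The transducer and the receptor that restrains it were thus closer in level in ES cells.

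All 16 genes of the list that act between Smoothened and the Gli proteins were above 0 in both samples. Of all listed genes, 9.09% were at 0 in ES cells and 7.85% in the forebrain. Of the 16 genes of this list, 10 were at least 2-fold higher in the forebrain (background 25.8%) and 0 in ES cells, with a median difference of 1.32. *Sufu*, the protein that binds and restrains Gli factors, had an RPKM of 94.9 in ES cells and 241 in the forebrain, a 2.53-fold difference (2.30 to 2.79). *Kif7*, a ciliary kinesin that organizes Gli processing, had 160 and 274, or 1.71-fold (1.55 to 1.88). *Gpr161*, a ciliary receptor that keeps protein kinase A active and the pathway off, had 7.82 from 20 reads and 410 from 1523 reads, the largest difference of the list (52.4-fold, 33.0 to 83.9). *Prkar1a*, the regulatory subunit of that kinase, had 1062 and 2568. *Csnk1a1*, a casein kinase that phosphorylates Gli proteins, was slightly higher in ES cells, at 2400 against 1907. The kinase genes of this list serve many pathways.

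Genes of the primary cilium differed less. Of 16, 5 were at least 2-fold higher in the forebrain (background 25.8%), 1 was at least 2-fold higher in ES cells (background 23.3%), and the median difference was 0.68. This share of 5 of 16 genes was close to that of all listed genes. *Ift122*, a subunit of the transport complex that returns cargo from the tip, had the largest difference, 77.5 in ES cells against 397 in the forebrain (5.12-fold, 4.66 to 5.63). *Mks1*, a component of the transition zone, had 230 and 111 and was the gene at least 2-fold higher in ES cells. Smaller differences in that direction included *Ofd1*, with 354 and 223. *Fkbp8*, which counteracts *Shh* signalling in the neural tube, had the highest level of the list, 2435 and 2321.

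*Gli3*, which acts mainly as a repressor (ENSMUSG00000021318, chromosome 13, 15555068 to 15821859, plus strand), had an RPKM of 65.4 in ES cells from 513 reads (59.8 to 71.2). In the forebrain it had 732 from 8565 reads (716 to 747), 11.2-fold higher (10.2 to 12.3). *Gli1*, an activator and a target of the pathway (ENSMUSG00000025407, chromosome 10, 126766945 to 126778645, minus strand), had 45.7 from 141 reads (38.3 to 53.7) and 147 from 678 reads (136 to 158), a 3.21-fold difference (2.69 to 3.90). *Gli2*, the main activator in the neural tube (ENSMUSG00000048402, chromosome 1, 120730709 to 120950196, minus strand), had 40.4 from 227 reads (35.3 to 46.0) and 113 from 944 reads (105 to 120), which is 2.78-fold (2.41 to 3.24). All 3 were therefore higher in the forebrain, *Gli3* by a larger factor than *Gli1* and *Gli2*.

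Within ES cells the 3 *Gli* genes were at similar levels. *Gli3* held 43.2% of their summed RPKM, *Gli1* 30.2% and *Gli2* 26.7%, and the ratio of *Gli1* to *Gli2* had an interval that included 1 (1.13, 0.908 to 1.40). In the forebrain *Gli3* held 73.8%, *Gli1* 14.8% and *Gli2* 11.4%. The ratio of *Gli3* to *Gli1* was 1.43 in ES cells (1.19 to 1.74) and 4.99 in the forebrain (4.61 to 5.40). The ratio of *Gli3* to *Gli2* was 1.62 (1.38 to 1.90) and 6.50 (6.08 to 6.96). Neither pair of intervals overlapped, and both ratios are free of the scaling between samples.

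*Arhgap9* overlaps the end of *Gli1* on the opposite strand over 55 bp of exon. It had an RPKM of 65.7 in ES cells and 32.6 in the forebrain and was thus higher in ES cells, unlike *Gli1*. *Inhbe*, 7812 bp from *Gli1*, had 2 reads in either sample.

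**Figure D2:**
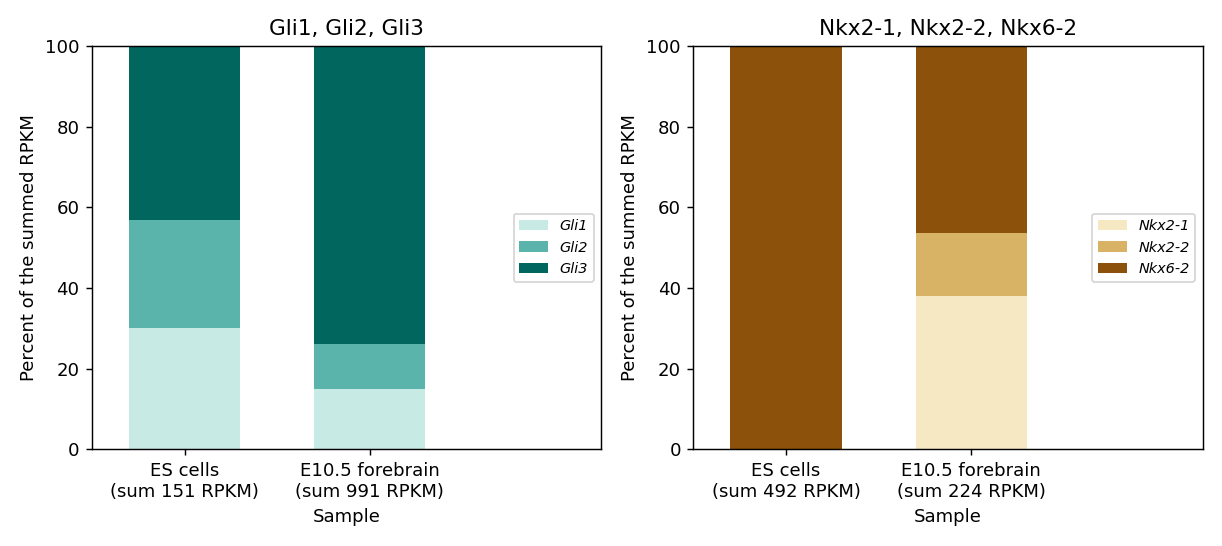
Share of each gene in the summed RPKM of the *Gli* genes (left) and of *Nkx2-1*, *Nkx2-2* and *Nkx6-2* (right), in percent, for ES cells and E10.5 forebrain (1 sample each). *Gli3* holds 43.2% of the *Gli* sum in ES cells and 73.8% in the forebrain, and *Nkx6-2* holds 99.9% and 46.3% of the sum on the right.

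*Nkx2-1*, the determinant of ventral forebrain identity (ENSMUSG00000001496, chromosome 12, 57632922 to 57637895, minus strand), was listed at 0 in ES cells, where no read allows an RPKM of up to 1.29. In the forebrain it had 85.0 from 294 reads (75.6 to 95.3), 65.7-fold the level of 3 reads in ES cells. The exact interval of this ratio started at 53.1. *Nkx2-2*, a factor of progenitors next to the floor plate (ENSMUSG00000027434, chromosome 2, 147003282 to 147019979, minus strand), had an RPKM of 0.42 in ES cells from 1 read (0.011 to 2.37). It had 35.1 in the forebrain from 123 reads (29.1 to 41.8), a ratio of 83.7 (14.5 to 3285). Both genes were thus at or near 0 in ES cells, and *Nkx2-1* exceeded *Nkx2-2* 2.42-fold in the forebrain (1.96 to 3.02).

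*Nkx6-2*, a homeobox repressor of ventral progenitors that later acts in oligodendrocytes (ENSMUSG00000041309, chromosome 7, 146765276 to 146768696, minus strand), ran the other way. It had an RPKM of 491 in ES cells from 767 reads (457 to 527) and 104 in the forebrain from 241 reads (90.9 to 117). The level was 4.74-fold higher in ES cells (4.10 to 5.51). With this value *Nkx6-2* was the highest of the 10 genes in ES cells, at percentile 78.1 of all listed genes, and 2.79-fold above *Smo*, the next (2.49 to 3.11). In the forebrain it lay seventh. Its paralog *Nkx6-1* had 9.42 from 26 reads in ES cells and 23.6 from 97 reads in the forebrain, a 2.50-fold difference in the opposite direction (1.61 to 4.02).

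*Inpp5a*, a widely expressed phosphatase gene, overlaps the end of *Nkx6-2* on the opposite strand and shares 245 bp of its 1906 bp of exon. It had 612 reads in ES cells and 1103 in the forebrain over 3529 bp, with an RPKM of 212 and 256. This difference, 0.27 on the log2 scale, was smaller than the shift of the median gene, -0.31, when each sample was divided by its median. As at *Shh*, reads of the shared exon cannot be assigned from these tables. The part of *Inpp5a* in the levels of *Nkx6-2* was not tested, and the counting intervals do not cover it. *Nkx2-2* is likewise overlapped by the antisense transcript *Nkx2-2as*, which shares 278 bp of exon with it and had 0 reads in ES cells and 13 in the forebrain. *6430503K07Rik*, which lies within *Nkx2-2* and shares no exon with it, had 0 and 14 reads. No annotated gene lies within 10 kb of *Nkx2-1*.

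Promoter sequences of RefSeq (build GRCm38.p6, 250 bases before to 50 after the start) were found for 8 of the 10 genes, and not for *Shh* and *Gli1*. Those of the *Nkx* genes are shown because these had 0, 1 and 767 reads in ES cells. They run 5′ to 3′ on the strand of the gene, with CpG dinucleotides in capitals.
Nkx2-1 (chr12:56536859-56537158, minus strand): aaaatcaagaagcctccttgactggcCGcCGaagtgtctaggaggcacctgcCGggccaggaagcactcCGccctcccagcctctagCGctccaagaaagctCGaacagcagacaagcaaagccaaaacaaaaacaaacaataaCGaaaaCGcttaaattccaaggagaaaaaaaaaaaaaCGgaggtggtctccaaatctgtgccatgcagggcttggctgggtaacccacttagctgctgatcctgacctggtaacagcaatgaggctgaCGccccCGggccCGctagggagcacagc
Nkx2-2 (chr2:147186353-147186652, minus strand): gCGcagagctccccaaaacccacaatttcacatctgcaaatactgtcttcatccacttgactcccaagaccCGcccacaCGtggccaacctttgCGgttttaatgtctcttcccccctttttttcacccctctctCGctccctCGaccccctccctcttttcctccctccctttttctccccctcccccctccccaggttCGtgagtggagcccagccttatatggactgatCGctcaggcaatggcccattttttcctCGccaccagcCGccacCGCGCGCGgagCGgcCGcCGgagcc
Nkx6-2 (chr7:139582748-139583047, minus strand): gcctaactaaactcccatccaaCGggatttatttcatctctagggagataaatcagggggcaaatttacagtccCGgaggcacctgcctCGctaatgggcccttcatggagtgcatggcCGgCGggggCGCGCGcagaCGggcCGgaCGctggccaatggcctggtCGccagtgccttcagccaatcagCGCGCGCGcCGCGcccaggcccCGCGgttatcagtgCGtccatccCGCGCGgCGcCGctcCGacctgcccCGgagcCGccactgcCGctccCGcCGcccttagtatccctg
*Nkx2-1* held 12 CpG in these 300 bases, *Nkx2-2* 17 and *Nkx6-2* 32, with a GC content of 53.7%, 59.7% and 66.7%. The numbers for *Smo*, *Gli2*, *Hhip*, *Gli3* and *Ptch1* were 17, 28, 30, 39 and 47, respectively. All 8 were above the median of 7 CpG over 32851 RefSeq promoters. *Hhip*, with 1 read in ES cells, and *Nkx6-2* thus had similar numbers of CpG. The Gli binding motif GACCACCCA, searched on both strands, was in 0 of the 8 promoters and in 0.253% of all promoters. The motif is absent only from these windows, and distal elements were not searched.

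The homeobox genes related to these 3 were low in both samples, with few exceptions. Of 10 listed genes among the other *Nkx* genes, 5 were at least 2-fold higher in the forebrain (background 25.8%) and 4 in ES cells (background 23.3%), and the median difference was 0.58. *Nkx1-2*, a gene of the caudal epiblast, had an RPKM of 858 in ES cells from 2294 reads and 4.14 in the forebrain from 17 reads, a 207-fold difference. *Nkx6-3* had 39 reads in ES cells and 0 in the forebrain. Of the 4 genes at least 2-fold higher in ES cells, *Nkx1-1* and *Nkx2-5* rested on 1 and 3 reads. *Nkx2-4*, a hypothalamic gene close in sequence to *Nkx2-1*, had 7.79 from 11 reads and 46.7 from 98 reads (5.99-fold, 3.20 to 12.4) and was the highest of these genes in the forebrain. *Nkx2-3*, a factor of gut mesenchyme, had 0 and 46 reads. *Nkx2-9*, which is expressed near the floor plate, had 26.6 and 24.9, a ratio with an interval that included 1 (0.578 to 1.65). *Nkx2-6* is annotated but not listed, and was therefore taken as 0 in both samples.

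Ventral genes, listed here as targets of *Shh*, were higher in the forebrain in nearly all cases. Their control by *Shh* in these samples was not tested. Of 12 genes of this list, 11 were at least 2-fold higher in the forebrain (background 25.8%), 0 were at least 2-fold higher in ES cells, and the median difference was 3.81. With genes at 0 in ES cells set to the level of 3 reads there, it was 3.69. *Nkx2-4*, *Nkx2-9* and *Nkx6-1* are in this list and in that of the other *Nkx* genes. *Olig2*, the factor of motor neuron and oligodendrocyte progenitors, was listed at 0 in ES cells and had an RPKM of 198 in the forebrain. The exact interval of its ratio started at 107. *Lhx8*, a gene of the medial ganglionic eminence, had 0 and 185, with an interval that started at 103. *Foxa2*, the floor plate factor, had 3 reads in ES cells and 87 in the forebrain, with an RPKM of 1.55 and 30.1 (a ratio of 19.4, 6.44 to 96.2). *Nkx2-9* was the exception.

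Targets linked to growth and to mesenchyme formed a further list of 6 genes. Of these, 4 were at least 2-fold higher in the forebrain (background 25.8%) and 0 in ES cells, with a median difference of 5.36. *Ccnd1*, a G1 cyclin, had an RPKM of 2290 in ES cells and 4464 in the forebrain, or 1.95-fold (1.90 to 2.00), and *Mycn* had 599 and 694. These were the genes below 2-fold. *Ccnd2*, a G1 cyclin of neural progenitors, had 16.9 and 3829, a 226-fold difference (182 to 286). *Bcl2* had 1.87 and 152. *Foxf1a* and *Foxl1*, hedgehog targets of mesenchyme and not of neural cells, had 2 reads and 1 read in ES cells and 186 and 84 in the forebrain. The mesenchyme markers *Twist1* and *Foxc1* were at 1556 and 565 in the same library (12.8 and 2.91 in ES cells).

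**Figure D3:**
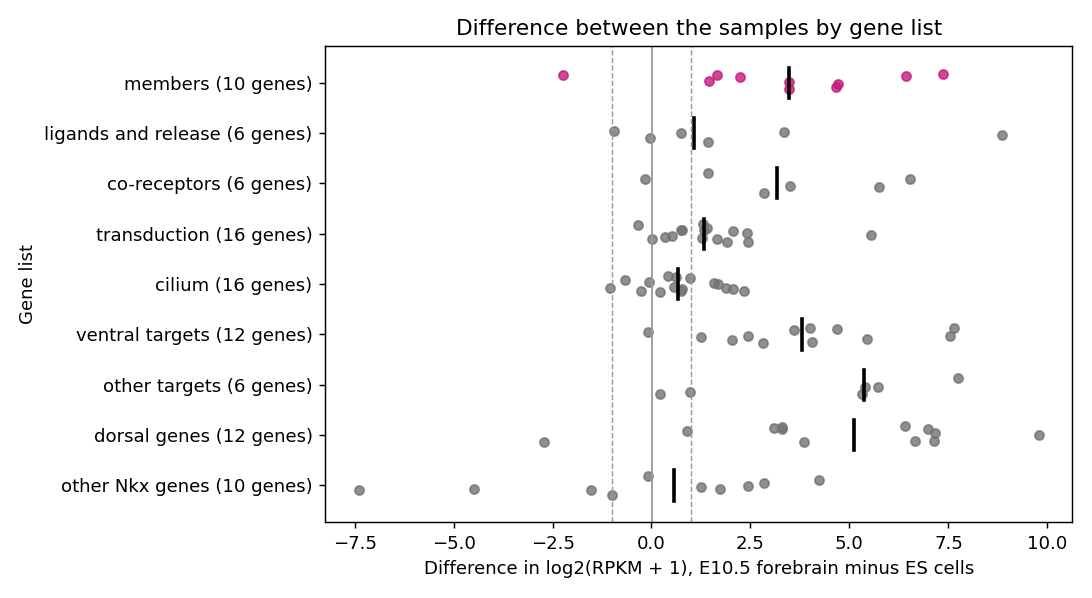
Difference in log2(RPKM + 1), E10.5 forebrain minus ES cells, for each listed gene (points) of the 10 genes described here (pink) and of the related gene lists (grey), with the median of each list as a black bar. The grey line is the median of all listed genes (0.01), and the dashed lines are 2-fold differences. The ventral targets (median 3.81) lie farther to the right than the cilium genes (median 0.68). The dorsal genes (median 5.12) and the other targets (median 5.36) lie farther to the right than the ventral targets.

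The order of the 10 genes differed between the samples. In ES cells it ran from *Nkx6-2* to *Smo*, *Ptch1*, *Gli3*, *Gli1*, *Gli2*, *Nkx2-2* and *Hhip*, with *Shh* and *Nkx2-1* at 0. *Gli1* and *Gli2* did not differ beyond the counting error of their reads, nor did *Nkx2-2* and *Hhip*. The interval of *Hhip* (1 read) over *Shh* (0 reads) also included 1, and *Shh* and *Nkx2-1* cannot be ordered. In the forebrain the order was *Smo*, *Gli3*, *Ptch1*, *Shh*, *Gli1*, *Gli2*, *Nkx6-2*, *Nkx2-1*, *Nkx2-2* and *Hhip*. Of these neighbours, *Gli2* and *Nkx6-2* (ratio 1.09, 0.943 to 1.26) and *Nkx2-2* and *Hhip* (1.11, 0.871 to 1.39) did not differ beyond counting error. The intervals of *Shh* over *Gli1* (1.12, 1.00 to 1.26) and *Nkx6-2* over *Nkx2-1* (1.22, 1.02 to 1.45) began close to 1. These intervals do not cover reads of exons shared with overlapping genes, as at *Shh*, *Gli1*, *Nkx2-2* and *Nkx6-2*. In all, 4 of the 10 genes were above the median RPKM of all listed genes in ES cells (48.9), and 8 were above it in the forebrain (62.4).

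**Figure D4:**
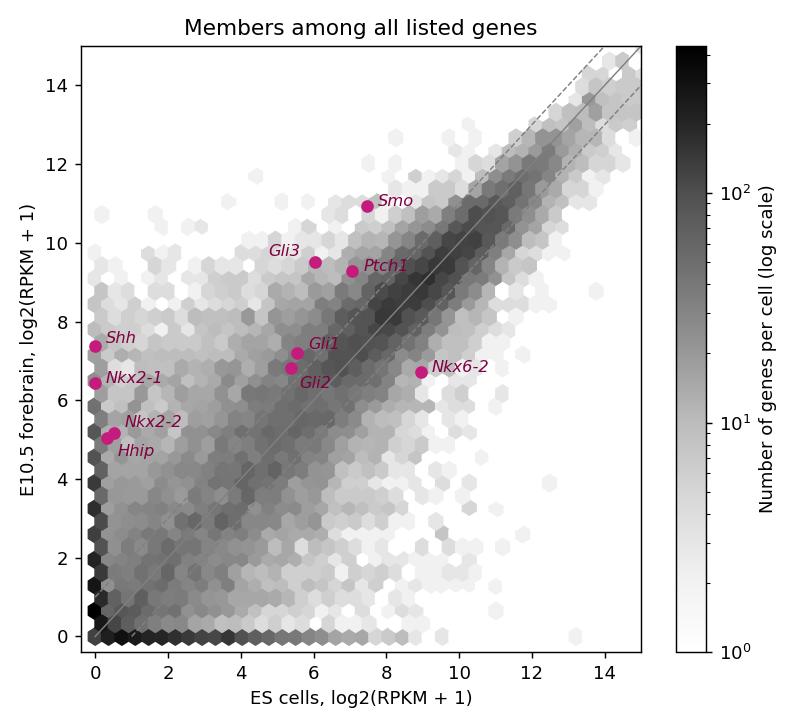
The 10 genes (pink) among all 29311 listed genes (grey, darker where more genes fall), with log2(RPKM + 1) in ES cells on the horizontal and in the forebrain on the vertical axis. The solid line marks equal values and the dashed lines 2-fold differences. *Shh*, *Nkx2-1*, *Nkx2-2* and *Hhip* lie along the left edge, and *Nkx6-2* lies below the lower dashed line.

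Other genes had values close to those of *Shh* and *Nkx2-1* in both samples. By distance in log2(RPKM + 1) over the 2 samples, the protein-coding genes nearest to *Shh* were *Tyrobp* (0 in ES cells and 165 in the forebrain), *C1qa* (0 and 166) and *Filip1* (0 and 166). *Tyrobp* and *C1qa* are genes of macrophages and microglia. Nearest to *Nkx2-1* were *Fgf8* (0 and 83.7), the ligand of the rostral forebrain midline, *1110006G14Rik* (0 and 82.9) and *Ncf4* (0 and 82.1), a gene of phagocytes. Within a distance of 0.5 there were 35 and 48 protein-coding genes, respectively, and likeness over 2 samples cannot order them further.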

How the data were processed

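Total RNA was depleted of rRNA and read from a single end in strand-specific libraries (50 bp in the methods, 100 bp in the labels). The authors mapped reads to NCBIM37 (mm9) with HTSstation and deposited 1 RPKM value per gene and sample. Bowtie 0.12.7 is named in the submitters' processing notes. All 29311 genes were matched by identifier and coordinates to GENCODE M1 of the same build, which gave exonic lengths. RPKM times exonic kb steps by 1.22 (ES cells) and 0.819 (forebrain). Of the low values of genes up to 2500 bp, 66.5% of 4395 and 69.3% of 4201 lie within 0.05 of a whole multiple. A step was taken as 1 read, and reads per gene were rounded. For 4 of the 10 genes in each sample the result lay within 0.05 of a whole number, and for the others the reads are approximate. Median-of-ratios factors computed from the inferred reads were 1.22 and 0.816, close to the steps, so the deposited scale differs from the usual definition of RPKM by total reads.

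Level intervals are exact Poisson and ratio intervals exact Clopper-Pearson intervals (95%) on inferred reads. A floor of 3 reads was used for genes at 0. No test over samples is possible with 1 sample per group, so lists are given as counts and medians beside all genes. The 10 genes and the lists were chosen with earlier results of these data known. Named were the 10 genes, the genes within 10 kb of them, a preset set of pathway genes, in each list the genes with the highest level or largest difference either way (at least 10 reads in either sample), and the 3 genes nearest to *Shh* and *Nkx2-1*. *Hhat*, *Lrp2*, *Ofd1*, *Lhx8*, *Bcl2*, *Foxf1a*, *Foxl1*, *Nkx1-1*, *Nkx2-5*, *Nkx6-3*, *Gdf7*, *Emx2*, *Noto* and *Chrd* were named after their values were seen. The step search and intervals were tested on simulated data. Alternatives covered detection limits, scaling, pseudocount, a minimum of reads and the background set. The other assays of the study were not used here, and 1 gene of the co-receptor list is not reported by name. Software was Python 3.11.15 with numpy 2.4.6, scipy 1.17.1, matplotlib 3.10.9 and pandas 2.3.3.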

Additional observations from a re-analysis of the deposited data

How the results depend on the processing

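No paired analysis was possible because each group holds 1 sample, and no sample could be left out. In all 6 scalings and pseudocounts tried, and with at least 10 reads asked for, 9 of the 10 genes were at least 2-fold higher in the forebrain and 1 in ES cells, and no gene changed direction. The median difference of the 10 genes, 3.47, became 3.74 when each sample was divided by its sum, 3.12 when divided by its median, and 2.85 with a pseudocount of 5. The median of all genes shifted by 0.25 and -0.31 under the first and second of these, and relative to it the median of the 10 genes was 3.48 and 3.42 (3.45 as deposited). Dividing by the median also turned the split over all genes from 7558 higher in the forebrain and 6829 in ES cells to 6388 and 8663. Of the 10 genes, 8 were above 0 in ES cells, 6 had at least 3 reads there, and 4 were at or above the median of the listed genes. Among all listed genes, 9.09% were at 0 in ES cells, and the share with at least 3 reads there was not counted. The background of 25.8% was 27.8% with at least 10 reads and 27.9% over protein-coding genes, and that of 23.3% was 20.6% and 18.9%. Of 60 values for single genes, 45 stayed within the counting interval of their ratio and 15 moved beyond it. The ES cell levels of *Hhip* and *Nkx2-2* rest on 1 read each, so their ratios have wide intervals, and a level of *Shh* up to an RPKM of 1.36 (3 reads) in ES cells could have been missed at this depth.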

Other observations

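Dorsal genes of the neural tube and telencephalon, the domains opposite to those that *Shh* patterns, were also higher in E10.5 forebrain. Of 12 genes, 10 were at least 2-fold higher there (background 25.8%), 1 was at least 2-fold higher in ES cells (background 23.3%), and the median difference was 5.12 on log2(RPKM + 1). *Emx2*, *Lhx2* and *Pax6* of this list are also among the 8 forebrain markers, so their differences are not a separate observation. *Lhx2*, a selector of cortical identity, was listed at 0 in ES cells and had an RPKM of 877 in the forebrain. The exact interval of its ratio started at 606. *Msx1*, a target of BMP signalling, had 9.46 and 1492, and *Pax6*, the factor of dorsal telencephalic progenitors, had 17.5 and 267 (15.2-fold, 13.5 to 17.2). Head mesenchyme markers were high in the same library, and the part of this tissue in the level of *Msx1* was not tested. *Bmp4*, a dorsal midline ligand, was the gene higher in ES cells, with 1749 and 264, or 6.62-fold. *Gdf7* had 6 and 18 reads, and the interval of its ratio included 1 (0.765 to 6.19).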
